A study of Drosophila melanogaster with 6 samples.

Results

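The nuclear receptors of the ecdysone cascade are the steroid receptor pair EcR and usp and 7 further receptor genes, Eip78C, Hr3, Hr4, Hr38, Hr39, Hr78 and ftz-f1. They were taken as all probe sets whose annotation names exactly 1 gene, that gene being one of these 9. This gave 16 probe sets of 18769 on the array, with 4 for Hr39, 3 for Hr4, 2 each for Hr38 and ftz-f1, and 1 each for EcR, usp, Eip78C, Hr3 and Hr78. The arrays were Affymetrix Drosophila 2.0 chips, on which a probe set is a group of short probes for 1 transcript or a few. The treated group was S2* cells given 20-hydroxyecdysone (20E) at 1 µM for 24 h (3 arrays). It was set against S2* cells left untreated (3 arrays), for which the labels give no time and no solvent. S2* is a variant of the Drosophila S2 line, which resembles blood cells (haemocytes), and both groups were grown at 27 °C in serum-containing Schneider's medium. The labels name no transgene or mutation. They leave unstated if replicates came from different cultures, so the spread behind every p-value is that of these samples and may be a technical one.

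20E is the steroid hormone that times moulting and metamorphosis in insects. It binds EcR, which acts on DNA as a heterodimer with usp, the fly homologue of the vertebrate retinoid X receptor. The bound pair switches on early regulators, many of them nuclear receptors themselves, and these in turn control later genes, so that in the animal the receptors appear one after another around each hormone pulse. Hr3 and Hr4 belong to the early-late step and ftz-f1 to the following step, when the hormone has fallen again.

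On these arrays Eip78C was the 1 receptor gene that passed the test. Its single probe set rose to 156 ± 15.1 normalized intensity units in 20E cells, against 9.12 ± 3.71 in untreated cells (SD, n = 3 each). The other 15 probe sets did not pass. Their log2 differences ran from −1.73 to 3.28, and they included EcR and usp. Among them, 1 of the Hr4 probe sets and 3 of the Hr39 probe sets had higher values in all 3 treated arrays than in any untreated array.

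The treated arrays differed from the untreated ones over the whole array, so the receptors are set against that background. With limma, which fits each probe set with a variance informed by all of them, 5.10% of 18767 probe sets tested had a Benjamini-Hochberg adjusted p under 0.05, 3.02% higher and 2.08% lower in 20E cells. Of the 16 receptor probe sets 1 rose and 0 fell, a share close to that background. At an unadjusted p under 0.05, 7 receptor probe sets were higher and 1 lower, while 8.81% of all probe sets were higher and 8.40% lower. Of the 15 with a value on every array, 5 had treated values that all lay above the untreated ones and 0 had the opposite, against 10.4% and 12.3% of all probe sets. The median log2 difference was 0.56 over the receptors and −0.02 over all probe sets, and 12 of the 16 receptor differences were above 0, against 47.2% overall. Because the members were chosen with earlier results of these data known, these shares are a description.

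Treated replicate 2 stood apart from its group. It had 456 empty cells, against 9 to 146 on the other arrays, and 5.29% of its values were below 0, against 1.99% to 3.31%. Its mean correlation with the arrays of its own group was 0.872, and that of the other arrays 0.898 to 0.936. Among receptor probe sets with all values it was the lowest treated array in 10 of 15 and the highest in 3. Among all probe sets it was the lowest in 41.8% and the highest in 40.7%. Untreated replicate 2 was the lowest untreated array in 9 of the 15, and in 40.7% of all probe sets. Differences without treated replicate 2 are given beside the results that rest on it, whether they grew or shrank.

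The label of the cells was checked against marker genes. Of 12 haemocyte and S2-type markers, 6 averaged over 100 units on their brightest probe set, among them srp, vkg and Col4a1, while Hml, He, eater and NimC1 had means under 53 units in both groups. No neuron marker (5 genes) averaged over 100 units, while 2 of 3 muscle genes and 2 of 6 salivary gland genes did. The brightest of these were Mlc2, at 2662 ± 840.0 units in 20E cells and 4303 ± 2117 in untreated cells, and Sgs4, at 386 ± 239 units in 20E cells and 405 ± 49.6 in untreated cells (SD, n = 3 each). The summed level of the fat body list was 3307 to 3624 units in 20E cells and 1037 to 1684 in untreated cells, with Col4a1 and Fbp2 the 2 of 5 genes that rose. Most of this sum was Col4a1, whose probe set is on the haemocyte list as well. Fbp1, which was not called, averaged 16.6 units in 20E cells and 42.3 in untreated cells. The summed germ line list ran from 270.1 to 573 units in 20E cells and from 194 to 258 in untreated cells, with 1 of its 7 probe sets called higher. The summed haemocyte list ran from 6727 to 10036 units in 20E cells and from 7167 to 8888 in untreated cells, but its members moved in both directions, with 4 of its 13 probe sets higher and 1 lower by limma. Nplp2 fell to 101 units in 20E cells, against 5167 in untreated cells. srp averaged 1576 units in 20E cells and 308 in untreated cells, and crq 1157 units in 20E cells and 160.2 in untreated cells. The collagen genes vkg and Col4a1 averaged 2641 and 2740.5 units in 20E cells, against 909 and 1184 units in untreated cells. The part of these shifts in the receptor results was not tested.

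**Figure D1:**
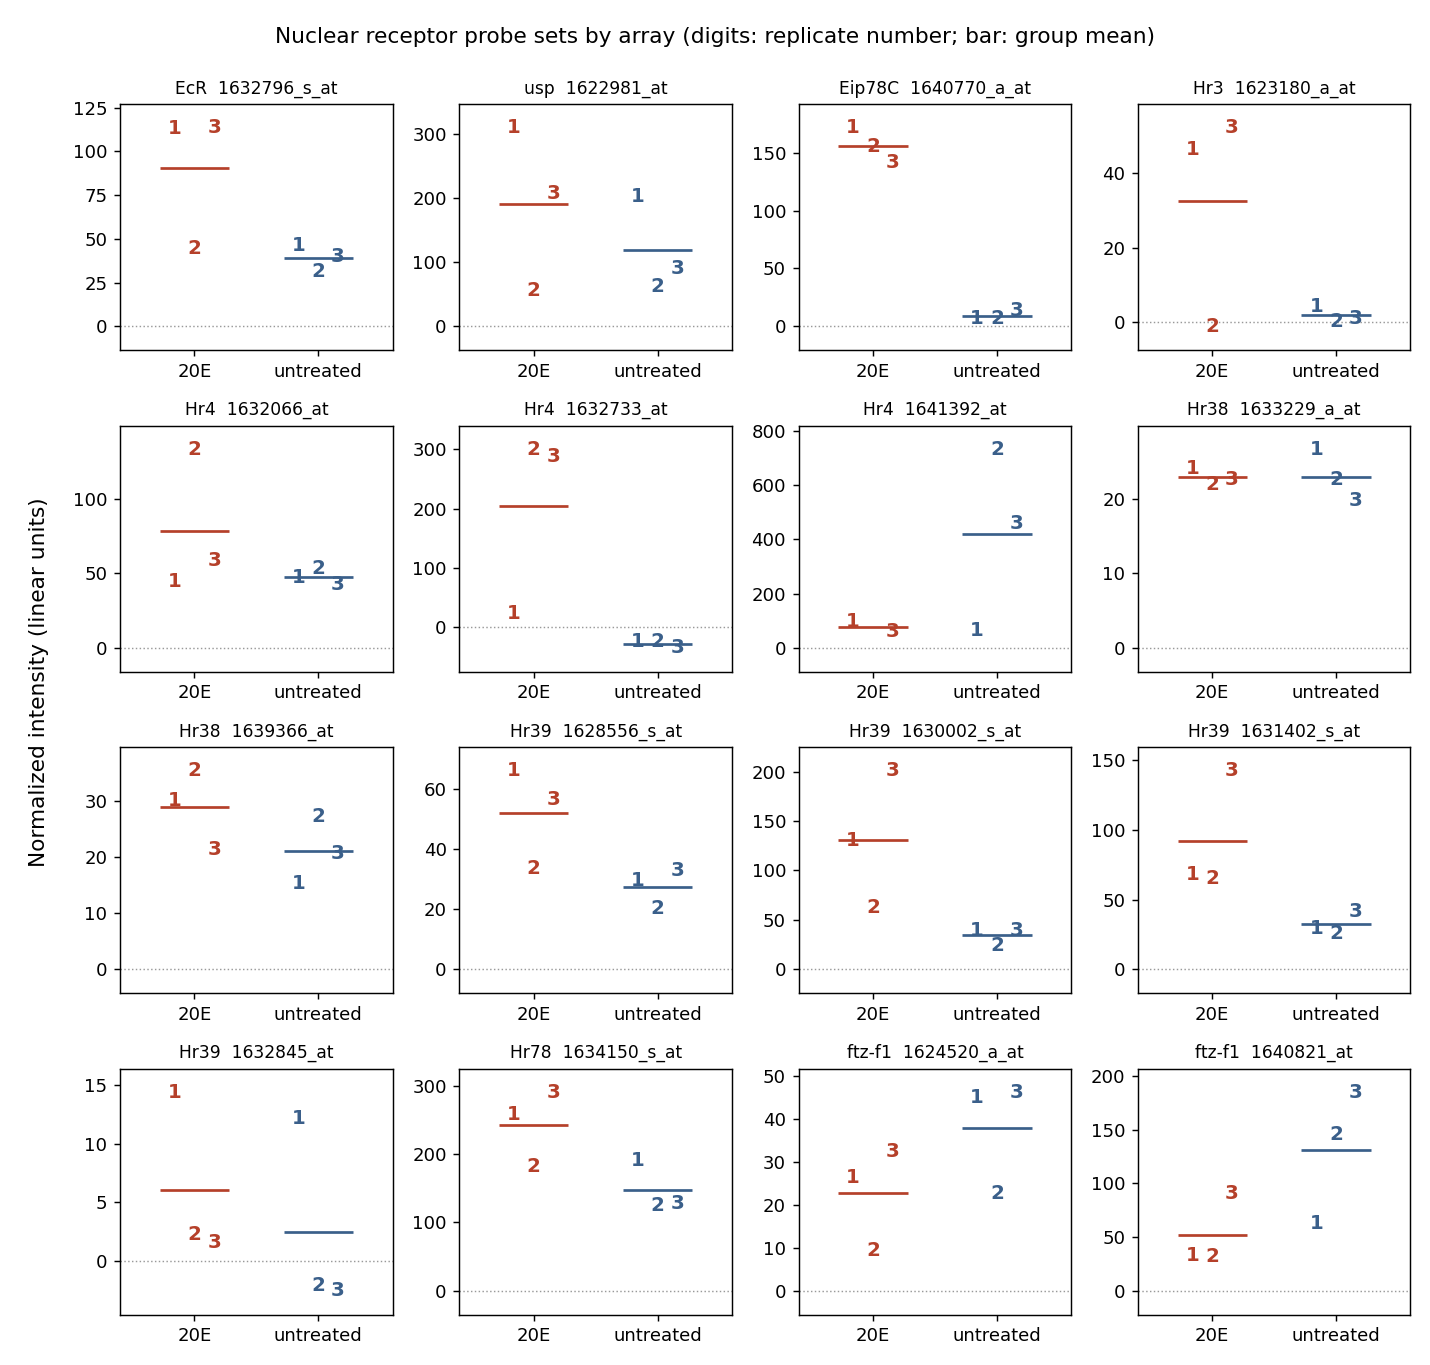
Normalized intensity (linear units) of the 16 receptor probe sets on each array, with 20E arrays on the left and untreated arrays on the right of each panel. Digits are replicate numbers, bars are group means, and the dotted line is 0. Eip78C separates completely, at 141 to 171 units in 20E cells and 6.77 to 13.4 in untreated cells, while treated replicate 2 lies among or below the untreated values for EcR, usp and Hr3.

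EcR is the partner that binds the hormone. Its 1 probe set (1632796_s_at), whose suffix marks probes matching more than 1 transcript, had 113, 44.5 and 113 units in treated replicates 1, 2 and 3, against 46.2, 31.5 and 39.8 in the untreated replicates. Treated replicates 1 and 3 lay clearly above the untreated values and treated replicate 2 lay among them. On the log2(normalized intensity + 16) scale used for all tests the difference was 0.87 ± 0.34 (SE, limma adjusted p = 0.247), with a 95% interval of 0.07 to 1.67 that is not adjusted for the number of tests. Without treated replicate 2 the difference was 1.27 and passed the test (adjusted p = 0.0232). With any other array left out it did not pass (adjusted p up to 0.54). In bulk RNA a change in the share of cells that express a gene and a change in the RNA per cell cannot be told apart. Which of the A and B isoforms of EcR, which differ in their N-terminal part, this probe set covers was not checked.

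usp, the heterodimer partner of EcR, varied more between arrays of a group than between groups. Its values were 310, 55.4 and 207 units in treated cells, against 203, 62.7 and 89.7 in untreated cells. The highest array in both groups was replicate 1 and the lowest replicate 2, and the groups overlapped. The difference was 0.50 ± 0.63 (limma adjusted p = 0.77), and its 95% interval of −0.98 to 1.99 covers a fall of nearly 1 log2 unit as well as a rise of nearly 2. Leaving out 1 array moved it between 0.05 and 1.16, and it did not pass in any of these fits.

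Eip78C encodes a nuclear receptor related to the vertebrate Rev-erb receptors and is named for the ecdysone-induced puff at 78C of the salivary gland chromosomes. Its probe set (1640770_a_at) read 171, 156 and 141 units in treated cells, against 6.77, 7.19 and 13.4 in untreated cells. Every treated array was above every untreated array, and treated replicate 2 lay between the other treated arrays. The log2 difference was 2.78 ± 0.20 (SE, limma adjusted p = 0.000669), or 6.88-fold in intensity + 16. The untreated values are dim, so the size of the rise depends on the offset. It kept its call in each of the 15 alternatives that included this probe set, with differences from 1.59 to 4.01. Leaving out any 1 array left it between 2.72 and 2.91.

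The 3 genes with the array profile nearest to that of Eip78C were cib, Glut1 and miple2. Nearness was the mean absolute difference between log2 profiles over the 6 arrays, each centred on its own mean, and was 0.07, 0.13 and 0.15 log2 units for these genes, against a median of 1.41 over 13135 candidate probe sets. cib, which encodes an actin-binding protein with thymosin beta repeats, had 3349, 3283 and 3146 units in treated cells, against 470.4, 425 and 512 in untreated cells. Glut1, a glucose transporter gene, had 101, 94.7 and 108 units in treated cells and values below 0 in all 3 untreated arrays. miple2, of the midkine and pleiotrophin family, had 1782, 1582 and 1748 units in treated cells, against 282, 227 and 329 in untreated cells. The nearness rests on the shared step between groups and carries no test.

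Hr3, a relative of the vertebrate ROR receptors that activates ftz-f1 in prepupae, was at or near 0 on 4 arrays. Its values were 46.4, −1.08 and 52.1 units in treated cells, against 4.32, 0.344 and 1.12 in untreated cells. Treated replicates 1 and 3 were far above the untreated arrays and treated replicate 2 was below them. The difference of 1.19 ± 0.55 did not pass (limma adjusted p = 0.338). Without treated replicate 2 it was 1.75 with an adjusted p of 0.00727, and with an offset of 1 in place of 16 it was 2.46 (adjusted p = 0.551), since differences of dim probe sets depend on the offset. With any other array left out it did not pass (adjusted p up to 0.61).

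Hr4, a receptor related to vertebrate GCNF that restrains ecdysone production in the larval prothoracic gland, was read by 3 probe sets that disagreed. Probe set 1632733_at had 23.6, 299 and 287 units in treated cells, while the untreated values were −24.6, −23.5 and −34.5. All treated values were above 0 and all untreated values below it, so no fold is given. The floor at 0 makes the untreated log2 values equal, so the untreated group adds no spread to the SE. The log2 difference of 3.28 ± 0.77 was the largest among the receptors and missed the threshold (limma adjusted p = 0.0659, unadjusted 0.0039). The low treated array here was replicate 1, not replicate 2. Without treated replicate 1 the difference was 4.24 and passed (adjusted p = 0.00155), and it also passed with an offset of 1 (adjusted p = 0.0255), with a filter on dim probe sets (0.0428) and with a trend and robust variance model (0.0456). These were the only 4 of 16 alternatives in which it passed, and its adjusted p reached 0.238 without variance moderation. The filter goes by mean intensity, which this probe set owes to its treated arrays, and leaves the difference unchanged. The pass with the filter is therefore no added evidence. Without treated replicate 2 the difference was 2.77 and did not pass (limma adjusted p = 0.128).

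The probe set 1641392_at of Hr4 differed in the other direction. It had 97.2 and 60.1 units in treated replicates 1 and 3 and no value on treated replicate 2, against 65.5, 732 and 460 units in the untreated replicates. Untreated replicate 1 lay among the treated values and the other untreated arrays several-fold above them. The difference was −1.73 ± 0.93 (limma adjusted p = 0.44, n = 2 treated and 3 untreated), and without untreated replicate 1 it was −2.71 (adjusted p = 0.0373), where 1.41% of all probe sets were called lower. That fit compared 2 treated with 2 untreated values. Without untreated replicate 2 or 3 the difference was −1.08 or −1.42 and did not pass (adjusted p = 0.761 and 0.736). The third probe set, 1632066_at, had 44.6, 133 and 58.4 units in treated cells, against 47.4, 53.4 and 42.2 in untreated cells, and differed by 0.46 ± 0.35 (adjusted p = 0.583). Its highest value, unlike those of EcR, usp and Hr3, was in treated replicate 2, and without that array the difference was 0.08.

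**Figure D2:**
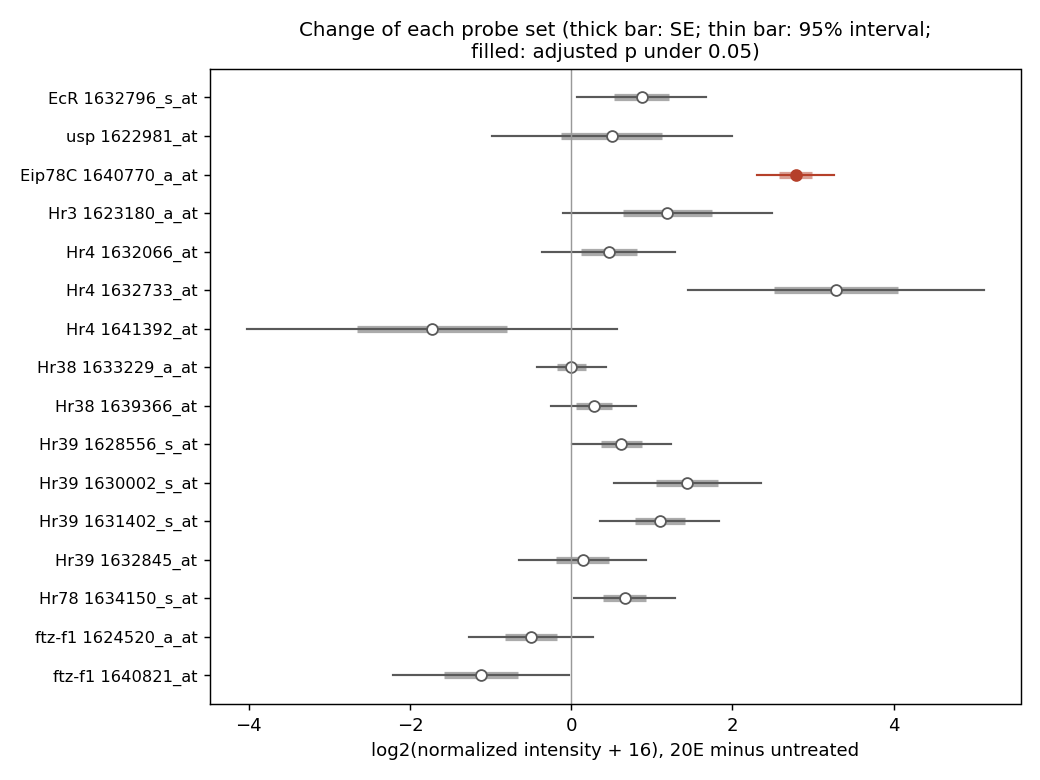
Difference of 20E minus untreated cells in log2(normalized intensity + 16) for each receptor probe set. Points are estimates, thick bars the limma SE, thin bars the unadjusted 95% interval, and the filled point marks an adjusted p under 0.05. Eip78C stands at 2.78 with a narrow interval, and the 3 Hr4 probe sets spread from −1.73 to 3.28.

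Hr39, a receptor of the same subfamily as ftz-f1 that is itself inducible by ecdysone, had 4 probe sets. Probe set 1630002_s_at had 131, 62.4 and 201 units in treated cells, against 39.7, 24.5 and 39.6 in untreated cells. Probe set 1631402_s_at had 67.8, 65.4 and 142 units in treated cells, against 29.4, 26.0 and 41.7 in untreated cells. Probe set 1628556_s_at had 65.9, 33.6 and 56.2 units in treated cells, against 29.5, 20.3 and 32.7 in untreated cells. In these 3 probe sets every treated array was above every untreated array, in the last by less than 1 unit. Their differences were 1.44 ± 0.39, 1.10 ± 0.31 and 0.62 ± 0.26, and none passed (limma adjusted p = 0.0957, 0.112 and 0.28). Without treated replicate 2, 1630002_s_at differed by 1.87 and passed (adjusted p = 0.0189), and the other 2 did not (0.0887 for 1631402_s_at and 0.0802 for 1628556_s_at). The 3 probe sets share a gene and a suffix for probes that match more than 1 transcript, so they are not independent evidence. The fourth, 1632845_at, lay near 0 throughout, at 14.4, 2.19 and 1.54 units in treated cells, against 12.1, −2.10 and −2.59 in untreated cells (difference 0.14 ± 0.33, adjusted p = 0.892).

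Hr78, a relative of the vertebrate TR2 and TR4 receptors that is needed at the onset of metamorphosis, had 257, 181 and 290 units in treated cells, against 191, 124 and 128 in untreated cells. Treated replicate 2 was below untreated replicate 1, so the groups overlapped. The difference was 0.66 ± 0.26 (limma adjusted p = 0.261), and leaving out 1 array moved it between 0.52 and 0.86 without a call.

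Hr38, a relative of the vertebrate NR4A receptors that can also pair with usp, had 2 probe sets with small differences. Its probe set 1633229_a_at had 24.1, 21.9 and 22.6 units in treated cells, against 26.6, 22.5 and 19.7 in untreated cells, a difference of 0.00 ± 0.18 with a 95% interval of −0.43 to 0.43. The other, 1639366_at, had 30.1, 35.5 and 21.4 units in treated cells, against 15.3, 27.3 and 20.8 in untreated cells, a difference of 0.28 ± 0.22 (limma adjusted p = 0.613). These levels are dim, and the offset of 16 compresses changes there.

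ftz-f1 encodes the competence factor that prepares prepupal tissues for the next hormone pulse. Both of its probe sets were lower on average in 20E cells, and neither passed. Probe set 1640821_at had 32.4, 32.2 and 90.6 units in treated cells, against 62.3, 146 and 185 in untreated cells, and differed by −1.12 ± 0.46 (limma adjusted p = 0.279). Probe set 1624520_a_at had 26.4, 9.41 and 32.3 units in treated cells, against 45.0, 22.7 and 46.1 in untreated cells, and differed by −0.50 ± 0.32 (adjusted p = 0.514). In both probe sets the groups overlapped, by untreated replicate 1 in the first and untreated replicate 2 in the second. The negative sign held in every alternative tried for both, from −1.53 to −0.73 and from −0.81 to −0.12. Without treated replicate 2 the differences were −0.94 for 1640821_at and −0.22 for 1624520_a_at.

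Whether probe sets of 1 gene changed by different amounts was tested within arrays for the 9 pairs with all values, by an exact permutation test over the 3 treated and 3 untreated arrays (two-sided), which cannot give a p below 0.1. For Hr4, the change of 1632066_at was smaller than that of 1632733_at by 2.82 ± 0.78 log2 units (SE; exact p = 0.1, the smallest possible, 0.3 after adjustment over the 9 pairs). Among the 6 Hr39 pairs the largest gap was 1.30 ± 0.54, between 1630002_s_at and 1632845_at (exact p = 0.1, adjusted 0.3). A gap of 0.82 ± 0.29 separated 1630002_s_at from 1628556_s_at (exact p = 0.1, adjusted 0.3). The other 6 pairs, those of Hr38 and ftz-f1 included, had exact p from 0.2 to 0.4.

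**Figure D3:**
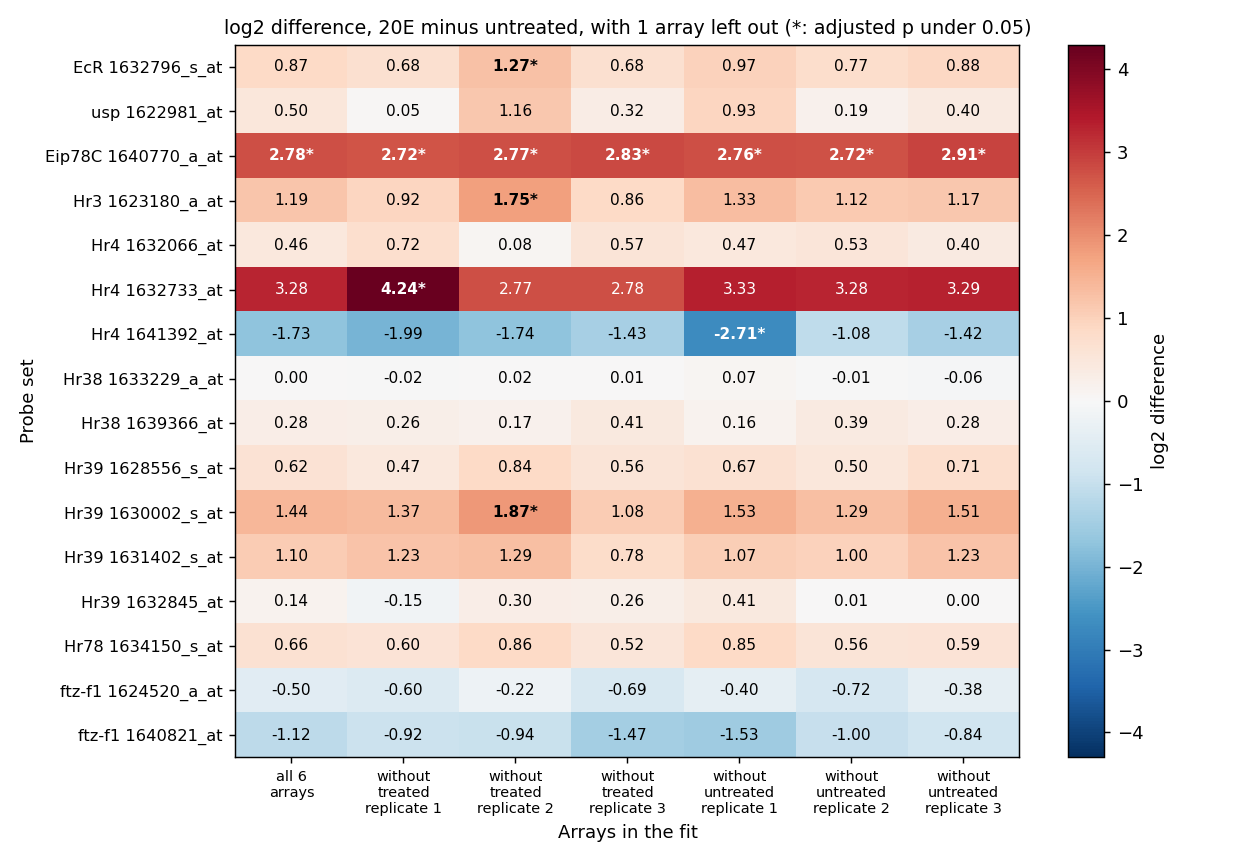
Difference of 20E minus untreated cells in log2(normalized intensity + 16) for each receptor probe set, with all 6 arrays and with each array left out in turn. An asterisk marks an adjusted p under 0.05. Eip78C is called in every column. EcR, Hr3 and Hr39 1630002_s_at are called only without treated replicate 2, Hr4 1632733_at only without treated replicate 1 and Hr4 1641392_at only without untreated replicate 1.

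The count of risen receptor probe sets therefore turned on single arrays. Without treated replicate 2 it was 4 of 16, namely Eip78C, EcR, Hr3 and Hr39 1630002_s_at, while 4.12% of all probe sets were called higher in that fit (0 receptor probe sets and 2.13% of all were lower). Without treated replicate 1 it was 2, Eip78C and Hr4 1632733_at, against 1.53% of all. Without both treated replicate 2 and untreated replicate 1, the arrays of each group with the lowest mean correlation to their own group, 6 rose and 1 fell, against 7.20% and 4.44% of all. This last setting was chosen after seeing the data. In it usp (1.62, limma adjusted p = 0.0397) and Hr78 (1.06, adjusted p = 0.0337) also passed, Hr4 1641392_at fell, and Hr4 1632733_at did not pass (adjusted p = 0.151).

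The other nuclear receptor genes of the fly were measured for comparison. Of 12 on that list, 11 were measured by 13 probe sets, with a median log2 difference of 0.01. By limma 1 probe set rose and 0 fell, against 3.02% and 2.08% of all. An unadjusted p under 0.05 was reached by 2, while 8.81% of all probe sets were higher and 8.40% lower at that level. The risen gene was Hnf4, a receptor that controls lipid breakdown and mitochondrial genes in flies. It had 1205 and 747 units in treated replicates 1 and 3 and no value on treated replicate 2, against 278, 109 and 118 in untreated cells. Its difference was 2.50 ± 0.46 (limma adjusted p = 0.0382). It was lost without treated replicate 1 or 3, which leaves 1 treated value (adjusted p = 0.208 and 0.114), and without untreated replicate 2 or 3 (0.135 and 0.168). Eip75B, whose protein binds Hr3 and blocks it, was not analysed here.

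Of 24 other regulators and effectors known to respond to ecdysone, 19 were measured by 28 probe sets, of which 10 rose, 2 fell and 16 did not pass, a called share of 42.9% against 5.10% of all probe sets. Of the 10 risen, Eip63E was measured on 1 treated array, and vri, E23 and Dronc on 2. The median difference was 0.19. The list was written with earlier results of these data known. The 6 genes with the lowest adjusted p were Hsp27, Blimp-1, Hsp26, vri, br and Eip93F. Of these, Blimp-1 fell, and Hsp27 and Hsp26 (small heat shock proteins), vri (a leucine zipper factor), br (the Broad zinc finger proteins, 2 of 5 probe sets) and Eip93F (a regulator of adult differentiation, 1 of 2 probe sets) rose, by 2.35 to 5.70 log2 units. The smallest of these, br 1626996_s_at (limma adjusted p = 0.0437), passed in 4 of 15 alternatives, with adjusted p from 0.0256 to 0.187, and was lost without treated replicate 2 or any 1 untreated array.

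Blimp-1 encodes a zinc finger repressor that is induced by ecdysone in prepupae and delays ftz-f1 there. Its values were −5.15, −35.7 and −41.5 units in treated cells, against 162, 183 and 153 in untreated cells. All treated arrays were below 0 and all untreated arrays above 150, so no fold is given. The floor at 0 makes the treated log2 values equal, so the treated group adds no spread to the SE. The log2 difference was −3.50 ± 0.18 (limma adjusted p = 0.000168), and it passed in all 16 alternatives, from −7.38 to −1.84 depending on the offset. The 2 ftz-f1 probe sets described above differed by −1.12 and −0.50 in the same arrays and did not pass.

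Coregulators and chaperones that nuclear receptors work with were measured for 18 of 23 listed genes by 21 probe sets. By limma 0 rose and 0 fell, against 3.02% and 2.08% of all probe sets, and the median difference was 0.05. An unadjusted p under 0.05 was reached by 4, while 8.81% of all probe sets were higher and 8.40% lower at that level. The EcR coactivator gene tai differed by 0.14 ± 0.38 (adjusted p = 0.912), and the corepressor gene Smr by 0.73 ± 0.40 (adjusted p = 0.434). The largest difference was that of rig, which encodes a binding partner of several of these receptors. It had 79.3, 23.9 and 58.1 units in treated cells, against 192, 83.9 and 118 in untreated cells, and differed by −1.10 ± 0.41 (adjusted p = 0.223). The lowest adjusted p was that of Fkbp59, which encodes an immunophilin of the FK506-binding family. It had 781, 849 and 892 units in treated cells, against 2127, 1466 and 1521 in untreated cells, so the groups did not overlap, and its difference of −0.99 ± 0.22 missed the threshold (adjusted p = 0.053). The genes named in this paragraph were chosen after their values were seen.

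**Figure D4:**
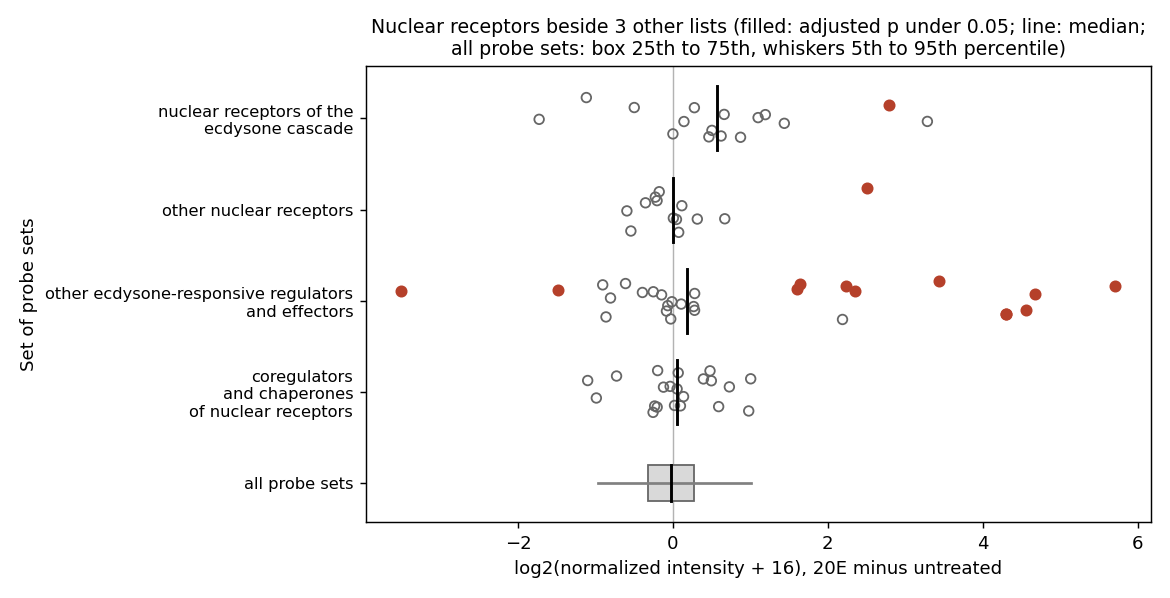
Difference of 20E minus untreated cells in log2(normalized intensity + 16) for probe sets of the ecdysone cascade receptors and of the 3 comparison lists, with all probe sets as a box (25th to 75th percentile) and whiskers (5th to 95th). Filled points have an adjusted p under 0.05 and black lines are medians. The receptors have a median of 0.56 with 1 filled point, and the ecdysone-responsive list has 12 filled points on both sides of 0.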

How the data were processed

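RNA of 3 treated and 3 untreated S2* samples was measured, 1 array each, and groups and replicate numbers came from the sample titles. The values deposited by the authors are linear intensities, 1 for each probe set on each array, with 736 cells empty. How they were summarised, background corrected and scaled is not given in the sources used here. Intensities were quantile normalized between arrays, floored at 0 and taken as log2(intensity + 16). Printed intensities are before the floor. The groups were compared by lmFit and eBayes of limma 3.58.1 under R 4.3.3 (two-sided, Benjamini-Hochberg over 18767 probe sets, threshold 0.05). This fit was tried on simulated data without empty cells, with changes added only to probe sets above the median level. The trial therefore does not show how changes of dim or incomplete probe sets are called. Where a group had 1 value, the spread came from the other group. Where all values of a group lay at the floor, that group showed no spread, which lowers the SE.

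Probe sets were named from GEO's platform annotation, with symbols brought up to date by gene number in a RefSeq table (all 16 receptor probe sets matched). Members, lists and the naming rule were chosen with earlier results of these data known. By that rule all receptor probe sets, up to 6 called genes of each list by adjusted p, and the 3 genes nearest to Eip78C were named. Outside it, tai, Smr, rig and Fkbp59 were named after their values were seen. Eip63E, E23 and Dronc were named for their empty cells. The alternatives left out arrays, 1 at a time or 2 together, or probe sets with the suffix _s_at, _x_at or _a_at, or those under the 40th percentile of mean intensity (the dim filter). Others used median centring or no normalization, an offset of 1 or 64, a replicate block, or a variance model with trend and robust settings or with no moderation. Sequences and coordinates are not used here. The number of arrays limits the precision.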

Additional observations from a re-analysis of the deposited data

How the results depend on the processing

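Eip78C kept its direction and call under all alternatives that included it. Leaving out probe sets with the suffix _s_at, _x_at or _a_at removes Eip78C itself, and the risen receptor count is then 0. That count was 2 with an offset of 1, the dim filter, the trend and robust model or the replicate block. The second was Hr39 1630002_s_at with the replicate block (limma adjusted p = 0.0452) and Hr4 1632733_at with the others. Over the probe sets tested, 370, 614, 638 and 585 rose in these settings, in that order. The receptor count was 6, with 1 fallen, without treated replicate 2 and untreated replicate 1. Leaving out 1 array gave 1 to 4 risen and 0 to 1 fallen. Deviations of same-numbered arrays correlated at 0.24, 0.37 and −0.02, and those of differently numbered arrays at −0.40 to 0.34. With so few arrays these values do not settle if the numbers mark pairs. The main fit was unpaired, and the replicate block is the paired alternative. Hr39 1632845_at ran from −0.15, without treated replicate 1, to 0.41 on leaving out 1 array, and the gap between Hr39 1628556_s_at and 1632845_at turned to −0.22 with an offset of 1. Hr38 1633229_a_at, at 0.00, ran from −0.06 to 0.08, and no other receptor difference turned.

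Over all probe sets, 957 changed (567 higher, 390 lower). Calls numbered 567 (370 and 197) with an offset of 1, 397 (247 and 150) without variance moderation, 629 (349 higher) without the suffixed probe sets, and 2183 (1350 and 833) without the 2 arrays. Leaving out 1 array gave 326 to 1173 (233 to 774 higher, 93 to 399 lower), fewest without untreated replicate 3. The Hnf4 call made the count of other receptors 1, and it was 0 with an offset of 1, without variance moderation or without the suffixed probe sets, and 0 to 1 on leaving out 1 array. Risen ecdysone-responsive probe sets numbered 6, 5 and 4 in those 3 settings, and 5 to 10 on leaving out 1 array. Fallen ones numbered 1 in those settings and with the dim filter, and 1 to 2 on leaving out 1 array. Of the coregulators and chaperones 1 rose and 1 fell with an offset of 64, no normalization, the dim filter or the trend and robust model, 1 fell with the replicate block, and 2 rose without the 2 arrays. Leaving out 1 array gave 0 to 1 risen and 0 fallen. The cause of these shifts was not tested. Dim probe sets, such as those of Hr3 and Hr38 and 1632845_at of Hr39, limit what can be seen near 0.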
